A study of Mus musculus with 4 samples.

Results

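Mouse embryonic stem cells without Parp-1 were compared here with cells of the same parental line in which PARP activity was blocked by a small molecule. The cells compared were Parp-1 deficient clone 210-58 and clone 226-47, both derived from the J1 line, and J1 cells treated with the PARP inhibitor PJ34, with 1 array of each. These are 3 of the 4 arrays of the series, chosen by their labels, and the array left out of the contrast, untreated wild type J1, is used below only to show where its level lies. Each Parp-1 deficient line is 1 clone, and neither the way Parp-1 was removed nor the dose and length of the PJ34 treatment is given in the sources used here. The inhibitor's array has no replicate, so every difference below rests on 1 array of treated cells. Parp-1 protein or activity is not measured by the arrays. The Parp1 gene was not examined either, because probes carry positions and no gene names.

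DNA methylation at CpG islands was read by MeDIP, in which sonicated DNA is pulled down with an antibody against 5-methylcytidine and hybridised (Cy5) beside whole DNA of the same cells (Cy3). CpG islands are stretches rich in the CpG dinucleotide that often lie at gene starts. Most are free of methylation, while a minority is methylated, among them islands at germline genes and islands of imprinted loci, where the copy from 1 parent carries the mark. In the nucleus Parp-1 builds chains of poly(ADP-ribose) on itself and on other proteins, at sites of DNA damage and in chromatin. A knockout removes the protein, whereas an inhibitor of the PJ34 kind leaves the protein in the cell and blocks its catalysis, and it can act on other PARP enzymes too.

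A region is a run of at least 3 probes whose starts lie at most 500 bp apart, and its value is the mean log2 ratio of immunoprecipitated DNA (IP) over whole DNA at those probes, with the median of all probes of an array set to 0. A region at 0 thus has the level of a typical probe on that array, and high values mean much methylated DNA. There were 14121 regions with a median of 6 probes and a median length of 664 bp. Positions are those of the files, which name no genome build, and were taken as those of mouse build mm8. No genome or gene table of that build was used here, so regions are named by position alone and no island sequence is shown. The share of probes with Cy5 well above background was 93.9% for clone 210-58, 98.0% for clone 226-47 and 91.3% for the PJ34 array. With 3 arrays, precision is limited by their number.

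Islands with strong methylation signal under PJ34 carried little in both clones at 6 places, and no island showed the reverse. In all, 190 of the 14121 regions (1.35%) differed between the clones and PJ34 treated cells in limma's test with Benjamini-Hochberg adjustment at 0.05. Of these, 133 (0.942% of all regions) were higher in the clones and 57 (0.404%) were lower. Both clones lay on the same side of PJ34 at 189 of them, against 9390 of all 14121 regions. A call asks for a large mean difference, which by itself favours a shared side. The directions differed in size: 18 of the 57 lower regions and 1 of the 133 higher regions were separated by 2 or more on the log2 scale. Differences of the lower regions ran to -5.81, and those of the higher regions to 2.16.

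**Figure D1:**
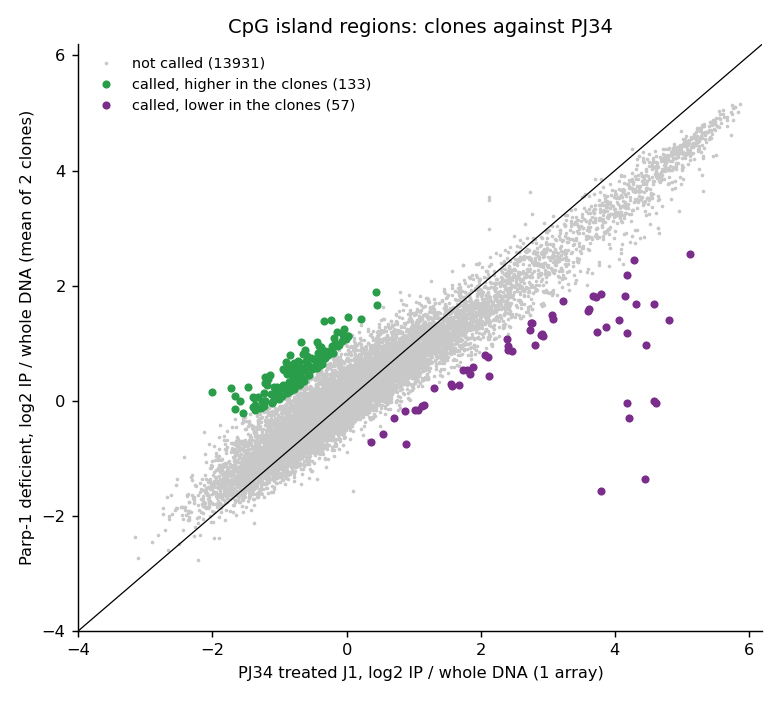
Each point is 1 of 14121 regions, with the log2 IP to whole DNA ratio of PJ34 treated J1 cells (1 array) on the x axis and the mean of the 2 Parp-1 deficient clones on the y axis. The line marks equal values. The 57 regions called lower in the clones (purple) reach far below the line at high PJ34 values, and the 133 called higher (green) stay close to it, mostly at PJ34 values below 0.

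Only the difference between the clones informs the spread behind these calls (1 residual degree of freedom), and limma gave its trend of variance with level full weight. The standard errors therefore follow the level of a region and hardly reflect how far the clones differed there, and the values of each clone are given beside each difference. The count of 190 was 100 with normexp background correction, 95 without the trend, 1 after intensity loess and 10 after quantile normalization. The test assumes that cultures treated with PJ34 vary as the clones do. Clone 226-47 and the PJ34 array shared a slide and clone 210-58 lay on another, so the difference of clone 226-47 from PJ34 is also the value within a slide.

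A rule on levels asked for regions at 2.5 or more under PJ34 and below 0.5 in both clones. It was met by 6 regions (0.0425% of all), and 0 regions met the reverse. Only the 1028 regions at 2.5 or more under PJ34 could meet the rule, and the 6 were 0.584% of them. The reverse asked for 2.5 or more in both clones, a level reached by 883 regions in clone 210-58 and 660 in clone 226-47. The 6 regions lay between 3.80 and 4.61 under PJ34. Clone 210-58 lay between -1.98 and 0.02 there, and clone 226-47 between -1.16 and 0.11. A gap of at least 2 between the groups follows from the rule itself. Within the shared slide, clone 226-47 was lower than PJ34 by a log2 difference of -5.57 to -4.14.

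The largest difference of all regions lay on chromosome 7 from 6333486 to 6334587 (9 probes). Clone 210-58 was at -1.60, clone 226-47 at -1.13 and PJ34 at 4.45, a difference of -5.81 (SE 0.31; adjusted p of limma 1.28e-74). Both clones were thus below the typical probe, with Cy5 well above background for 6 of the 9 probes in clone 210-58 and 8 in clone 226-47. On chromosome 11 from 22872000 to 22873052 (9 probes) the clones were at -1.98 and -1.16 and PJ34 treated cells at 3.80, a difference of -5.37 (SE 0.29; adjusted p of limma 8.09e-72). In these 2 regions the clones were lower than in the other 4.

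Chromosome 2 held a pair of such regions next to each other. In the longer one, from 173941465 to 173943988 with 22 probes, clone 210-58 was at 0.02, clone 226-47 at -0.09 and PJ34 at 4.61 (difference -4.64, SE 0.37, limma adjusted p = 1.98e-32). In its neighbour from 173940167 to 173940489 with 3 probes the values were -0.14, 0.04 and 4.19 (difference -4.23, SE 0.36). The clones were closer to each other in the longer region, with an SD of 0.08, than in any other of the 6.

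On chromosome 11 from 11925467 to 11926345 (10 probes) clone 210-58 was at -0.12, clone 226-47 at 0.11 and PJ34 at 4.58, a difference of -4.59 (SE 0.37). On chromosome 17 from 12584752 to 12585952 (10 probes) they were at -0.57, -0.03 and 4.21, a difference of -4.51 (SE 0.35). After intensity loess, which shrank the 6 differences, the region on chromosome 7 stayed called and the other 5 did not (limma adjusted p of 0.18 to 0.19, differences of -3.30 to -2.34). The clones differed with SDs of 0.08 to 0.58 over the 6 regions, while neither clone was nearer to PJ34 than a difference of -4.14.

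The lower signal covered each region whole. All 63 probes of the 6 regions were lower than PJ34 in clone 210-58, and all 63 were lower in clone 226-47. The regions were picked on the means of these same probes, which by itself favours probes on one side. For the mean of the clones, all probes lay on one side in 952 of the 1028 regions at 2.5 or more under PJ34. In every one of the 6 the lowest probe under PJ34 was above the highest probe of either clone. That gap was smallest, at 1.34, in the 22-probe region of chromosome 2, where a single probe near the centre stood at 2.38 in clone 210-58 and 2.13 in clone 226-47. It was 1.77 in the region of chromosome 17 and 3.56 in that of chromosome 7. Probe values were even under PJ34, with SDs over probes of 0.11 to 0.40, and more scattered in the clones, with SDs of 0.77 to 1.65 in clone 210-58 and 0.44 to 1.04 in clone 226-47.

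**Figure D2:**
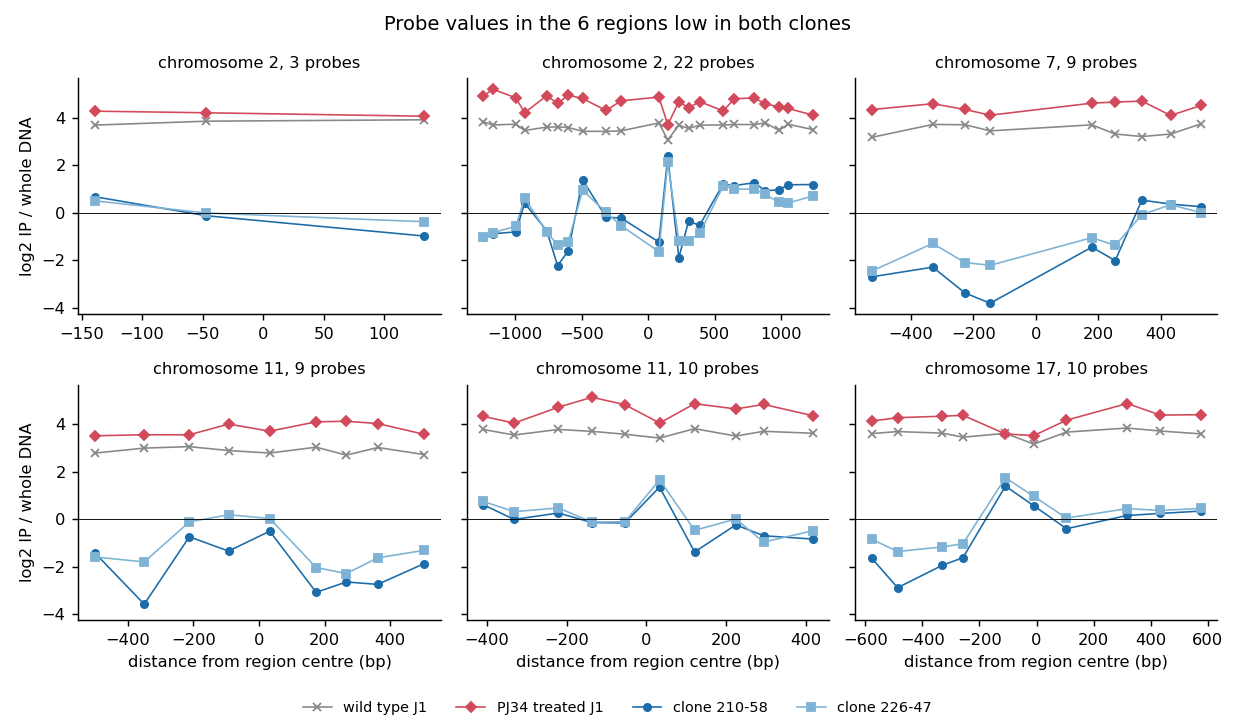
Log2 IP to whole DNA ratio of each probe (y axis) against its distance from the region's centre in bp (x axis), for the 6 regions at 2.5 or more under PJ34 and below 0.5 in both clones; each line is 1 array. PJ34 (red) runs at the top with wild type (grey) near it, and the 2 clones (blue) follow each other far below, with all 63 probes lower than PJ34 in each clone.

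The difference sat in the IP channel. At these 6 regions the Cy5 signal of a clone, centred per array, was lower than that of PJ34 by a log2 difference of -5.93 to -4.14. The whole DNA signal differed by -0.15 to 0.65. The highest whole DNA values were those of clone 210-58 on chromosome 11, at 0.65 and 0.54, a chromosome on which its Cy3 signal was high throughout (below).

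Regions around the 6 lay lower under PJ34 and differed less. Within 100000 bp there were 10 other regions, with differences between -1.53 and 1.17 and a median of -0.13. Of the 10, 2 were called, against 1.35% of all regions. None of the 10 reached 2.5 under PJ34, where they lay between -1.89 and 2.41. A fall as large as those of the 6 was thus hardly open to them, and their smaller differences do not show how far the falls extend. The called one on the low side lay on chromosome 7 from 6300350 to 6300691 (4 probes), 32795 bp before the region of largest difference. It was at 0.86 in clone 210-58, 0.89 in clone 226-47 and 2.41 under PJ34. The called one on the high side lay on chromosome 2 from 173973304 to 173974138 (6 probes), with 0.59 and 0.04 in the clones and -0.85 under PJ34. The regions that lay closest, 8829 bp after that of 9 probes on chromosome 11 and 10102 bp after that of 10 probes, differed from PJ34 by -0.02 and -0.50.

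A second set of islands was low in clone 210-58 alone. Of the 1028 regions at 2.5 or more under PJ34, 4 were below 0.5 in clone 210-58 and at 3.49 or more in clone 226-47, and 0 were below 0.5 in clone 226-47 alone. On chromosome 18 from 13116490 to 13116973 (3 probes) clone 210-58 was at -1.66, clone 226-47 at 3.60 and PJ34 at 4.47. On chromosome 7 from 143104693 to 143106020 (8 probes) they were at -0.36, 3.72 and 4.59, and on chromosome 6 from 4697308 to 4698444 (8 probes) at -0.94, 3.49 and 3.87. These 3 regions were called on the mean of the clones, with differences of -3.50, -2.91 and -2.59. Those calls rest on clone 210-58: the SD between the clones was 2.89 to 3.71, against SEs of 0.42 to 0.48. Within the shared slide clone 226-47 differed from PJ34 by -0.87, -0.87 and -0.38, and its median over all 1028 regions was -0.86.

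In the last of the 4, on chromosome 6 from 30688022 to 30688551 (6 probes), the clones stood on opposite sides of PJ34. Clone 210-58 was at -0.05, PJ34 at 2.77 and clone 226-47 at 4.50, and the mean of the clones was not called (limma adjusted p = 0.98). A similar split was seen on chromosome 10 from 12780667 to 12781550 (8 probes), the single called region with the clones on opposite sides. There clone 210-58 was at 0.53, just outside the level of 0.5, and clone 226-47 at 4.35 beside 4.29 under PJ34.

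A further set of called regions stayed at 0.5 or more in each clone. Among the regions at 2.5 or more under PJ34, 33 were called lower. Apart from the 6 and the 3 above, these were 24 regions with a median difference of -1.89, among them the region of chromosome 10 where clone 226-47 was not lower than PJ34. In the others both clones were lower. On chromosome 7 from 128479186 to 128479782 (6 probes) the values were 1.06 in clone 210-58, 1.73 in clone 226-47 and 4.80 under PJ34 (difference -3.41, SE 0.47; adjusted p of limma 5.27e-10). The region of chromosome 8 from 125661363 to 125662022 (7 probes) had 1.02, 1.33 and 4.18 (difference -3.01, SE 0.43). These 2 regions were lower in clone 210-58, and the remaining 2 of the 12 largest falls were lower in clone 226-47. On chromosome 13 from 56531867 to 56532553 (6 probes) the values were 1.86, 0.96 and 4.06, and on chromosome 7 from 18967874 to 18968322 (4 probes) 2.30, 1.04 and 4.31. Among regions at 2.5 or more under PJ34 that missed the level rule, the 2 whose higher clone was lowest were on chromosome 13. From 52941759 to 52942250 the values were 1.31, 0.96 and 2.89, and from 25062575 to 25063999 they were 1.32, 0.62 and 2.81. The higher clone was thus well above the limit of 0.5 in each.

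**Figure D3:**
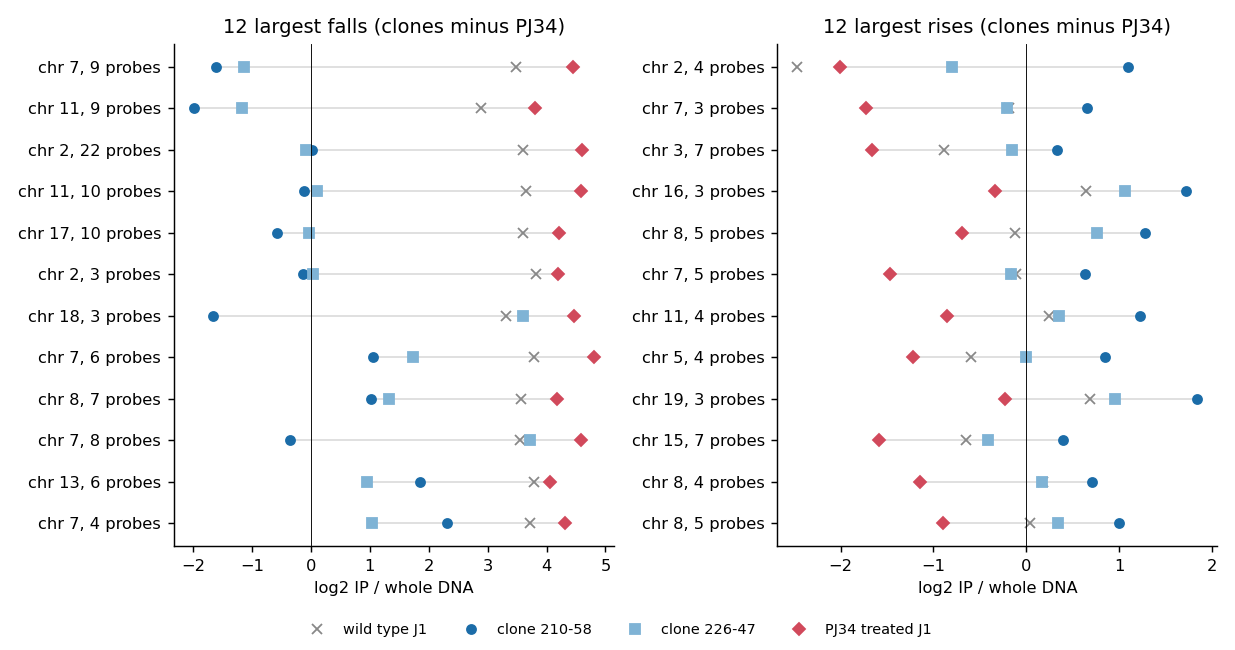
Log2 IP to whole DNA ratio (x axis) of the 12 largest falls and 12 largest rises of the clones against PJ34 among called regions with both clones on the same side; each row is a region and each marker 1 array. In the falls PJ34 lies between 3.80 and 4.80 with wild type next to it except where clone 226-47 lies between, and in the rises clone 210-58 is the highest array in all 12.

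Regions higher in the clones lay mostly below the typical probe under PJ34. There, 127 of the 133 lay below 0 and none at 1 or above, and in none of them did the mean of the clones reach 2. Their medians were 0.81 in clone 210-58, 0.23 in clone 226-47 and -0.72 under PJ34. Every probe had Cy5 well above background under PJ34 in 76 of the 133, which leaves the size of the others less certain. This was so in 56 of the 57 lower regions and in 8946 of all 14121. Clone 210-58 was higher than clone 226-47 in 129 of the 133, against 5987 of all 14121 regions. In 130 of the 133 clone 210-58 differed from PJ34 by at least 1. Clone 226-47, on the shared slide, did so in 47. Among the 57 lower regions these counts were 48 and 51. All probes lay on the same side in 100 of the 133 higher and in 55 of the 57 lower regions. This was so in 3644 of all 14121 regions and in 952 of the 1028 at 2.5 or more under PJ34.

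The 12 largest rises ran from 1.57 to 2.16 with SEs of 0.29 to 0.34 (limma adjusted p of 0.000726 or less). The largest lay on chromosome 2 from 33402658 to 33402988 (4 probes), at 1.10 in clone 210-58, -0.81 in clone 226-47 and -2.01 under PJ34. Its clones differed with an SD of 1.35, well above the SE of 0.34. On chromosome 7 from 28690291 to 28690586 (3 probes) the values were 0.66, -0.21 and -1.72, and on chromosome 3 from 154531855 to 154532585 (7 probes) 0.33, -0.16 and -1.66. On chromosome 16 from 33301044 to 33301267 (3 probes) they were 1.72, 1.06 and -0.34. In each of these 4 regions PJ34 was the lowest of the 3 arrays and clone 226-47 lay in the middle. In 5 of the 12 rises PJ34 was below -1.46, the 5th percentile of regions on its array.

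The next of these regions lay on chromosome 8 from 125167411 to 125168292 (difference 1.71). It was followed by that on chromosome 7 from 144724252 to 144724855 (1.70), where 3 of 5 probes had Cy5 well above background under PJ34, which leaves the size uncertain. The same holds for 5 of 7 probes in the region on chromosome 3 and 3 of 4 in that on chromosome 5. On chromosome 11 from 96857397 to 96857915 the difference was 1.64, on chromosome 5 from 150933588 to 150934122 it was 1.64, on chromosome 19 from 7137333 to 7137605 it was 1.63, and on chromosome 15 from 77797595 to 77798525 it was 1.58. Over the 12 rises clone 226-47 was above PJ34 by 1.18 to 1.51 within the shared slide. The other 2 were on chromosome 8, from 73439077 to 73439705 (difference 1.58) and from 114878757 to 114879133 (1.57). Quantile normalization left 10 calls and intensity loess 1, of which 0 were higher in the clones, although 1012 and 856 regions were higher there at an unadjusted limma p under 0.05.

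Wild type J1 cells, whose array the contrast did not use, lay next to PJ34 at the islands that were lower in the clones. The 6 regions of the level rule were at 2.89 to 3.82 in wild type, below PJ34 by 0.36 to 1.003. Wild type was nearer to PJ34 than to the mean of the clones at 48 of the 57 lower regions (84.2%), against 49.2% of all regions. At the 133 higher regions it was nearer to PJ34 in 40 (30.1%), and in 117 it lay between PJ34 and the mean of the clones. It lay between them at 38 of the 57 lower regions and at 4254 of all 14121. Called regions have a wide gap, which leaves more room for a value in between. Median values at the higher regions were -0.72 under PJ34, 0.07 on the wild type array, 0.23 for clone 226-47 and 0.81 for clone 210-58. At the region of chromosome 6 with the clones on opposite sides, wild type was at 2.19.

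By size alone, the mean of the clones differed from PJ34 by at least 1 on the log2 scale at 390 regions (2.76%) with both clones on one side. The clones were higher at 183 of these (1.30% of all) and lower at 207 (1.47%), and each clone by itself passed 1 at 149. The single clones gave opposite balances. Clone 210-58 differed from PJ34 by at least 1 at 498 regions (3.53%), with 356 (2.52%) higher and 142 (1.01%) lower. Clone 226-47, within the shared slide, differed at 695 regions (4.92%), with 155 (1.10%) higher and 540 (3.82%) lower. Scaling each array by its median absolute deviation left 228 regions for clone 226-47, 119 higher and 109 lower. Quantile normalization left 222, with 61 higher and 161 lower, so the split was near even under the first and stayed on the low side under the second.

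The interquartile range of region values was 1.48 on clone 210-58, 1.39 on PJ34 and 0.999 on clone 226-47. Of the 1028 regions at 2.5 or more under PJ34, clone 226-47 was below PJ34 in 99.1% and clone 210-58 in 87.8%. Picking regions by a high PJ34 value by itself favours lower values on any other array. Median values over the 1028 were 3.90 (PJ34), 3.68 (wild type), 3.48 (210-58) and 2.98 (226-47), so the wild type array lay lower too. The difference from PJ34 followed the level of enrichment. Among the 644 regions whose mean over the 3 arrays was 3 or above, the median difference was -0.44 in clone 210-58 and -0.85 in clone 226-47, and 2 were called. Among the 491 between 2 and 3 it was -0.23 and -0.72, with 17 called, all lower. Among the 4460 between 0 and 1 both medians were -0.01, with 76 called higher and 16 lower. Among the 1529 below -1 clone 226-47 was above PJ34 by a median of 0.48 and clone 210-58 below it by -0.13, and 0 were called in limma (6 at an unadjusted p under 0.05), where the median SE was 0.74 against 0.30 between 0 and 1. The part of the profile's width in the calls was not tested beyond these settings. With scaling by the median absolute deviation, 257 regions were called, 205 higher and 52 lower, and all 6 regions of the level rule still met it.

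**Figure D4:**
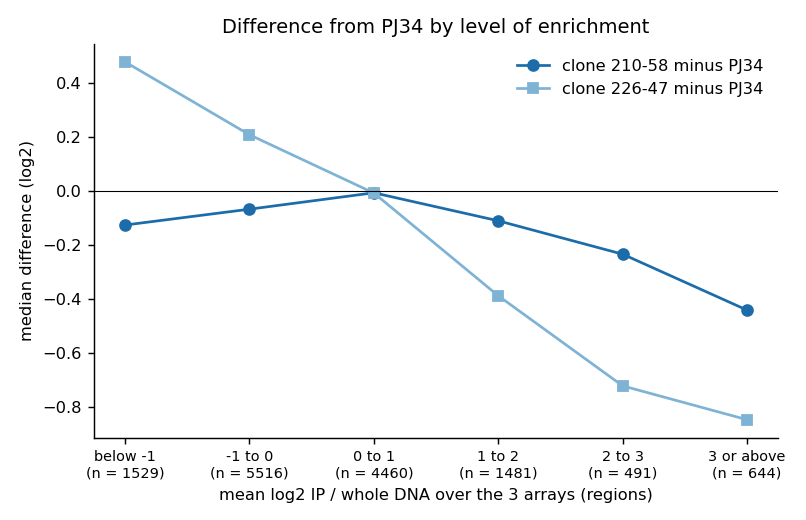
Median difference from PJ34 on the log2 scale (y axis) of clone 210-58 (circles) and clone 226-47 (squares) for regions grouped by their mean value over the 3 arrays (x axis, with the number of regions). Clone 226-47 goes from 0.48 above PJ34 in the lowest group to -0.85 in the highest, and clone 210-58 stays between -0.44 and -0.01.

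Pearson's r across the 14121 regions, a description of arrays that share their probes, was 0.942 between clone 210-58 and PJ34, 0.958 between clone 226-47 and PJ34, and 0.960 between the clones. By length, of the 1690 regions with 3 probes 2.25% were called, and of the 2364 with 10 or more probes 0.635%, against 1.35% of all.

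The cells compared also differed in their chromosomes, as read from the whole DNA channel. On chromosome 8 the median Cy3 signal relative to PJ34 was -0.44 in clone 210-58 and -0.42 in clone 226-47, with 98.9% and 98.7% of probes below 0. On chromosome 11 it was 0.51 in clone 210-58 and 0.07 in clone 226-47. Distal chromosome 14 (92773814 to 122762247) stood at -0.72 and -0.67, and 0 of its 58 regions were called in limma (11 at an unadjusted p under 0.05), a count too small to set apart from the 1.35% of all regions. A stretch of chromosome 6 (70721306 to 89801326) stood at -0.44 for clone 210-58 and -0.06 for clone 226-47. Medians of the 17 chromosomes other than 8, 11 and 14 lay between -0.08 and 0.12 in clone 210-58 and between -0.0019 and 0.04 in clone 226-47.

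The lower whole DNA signal of chromosome 8 went with higher ratios there. Its median region difference was 0.19, against -0.01 over all regions, and 13 of its 810 regions were called higher and 4 lower (together 2.10%, against 1.35% of all regions). At the 13 called rises the median difference of the ratio was 1.29, and that of the Cy5 signal alone 0.85. The fall on chromosome 8 from 125661363 was no smaller in Cy5 alone, at -3.49 in clone 210-58 and -3.23 in clone 226-47. Chromosome 18 had the highest share of called regions, 12 of 391 (3.07%), 9 higher and 3 lower, with Cy3 medians of -0.03 and 0.01. Without chromosomes 8, 11 and 14, 155 of 11652 regions were called, 109 higher and 46 lower.

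**Figure D5:**
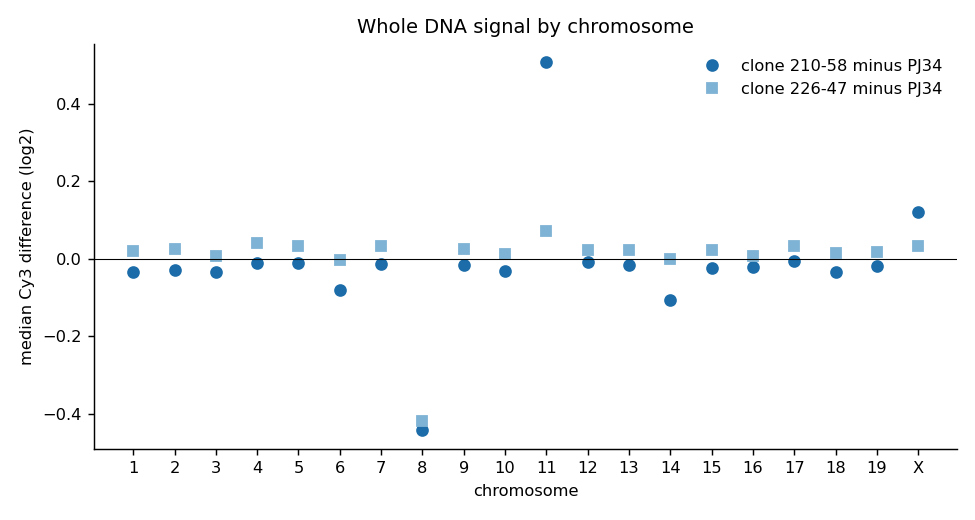
Median difference of the whole DNA (Cy3) signal from PJ34 on the log2 scale (y axis) by chromosome (x axis), for clone 210-58 (circles) and clone 226-47 (squares). Both clones are low on chromosome 8, at -0.44 and -0.42, and clone 210-58 is high on chromosome 11, at 0.51.

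Within the shared slide, the 6 largest falls of clone 226-47 against PJ34 were the same 6 regions that met the level rule. Both choices used the same values of PJ34 and clone 226-47, which by itself favours the match. The 6 largest rises of clone 226-47, with 1 array on each side and so no test, ran from 1.53 to 1.89. The region on chromosome 5 from 33759721 to 33760411 (6 probes) led them, at 4.02 in clone 226-47, 3.06 in clone 210-58, 2.13 under PJ34 and 2.42 in wild type. It was followed by those on chromosome 4 from 109895470 to 109895812, where Cy5 was well above background for 1 of 3 probes under PJ34, and on chromosome 6 from 30688022 described above. The others were on chromosome 8 (from 78005521 to 78006058, and from 116521164 to 116521815) and on chromosome 17 (from 66022934 to 66023514). Their Cy5 signal under PJ34 was well above background for 2 of 5, 4 of 6 and 4 of 5 probes in that order, which leaves their size uncertain. At the pair on chromosome 8 the Cy3 signal of clone 226-47 differed from PJ34 by -0.47 and -0.83, and its Cy5 signal was higher by 1.11 and 0.70. At the first of them clone 210-58 was at -3.20, below the -3.15 of PJ34.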

How the data were processed

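Genomic DNA was extracted, sonicated and in part immunoprecipitated, with IP DNA in Cy5 and whole DNA in Cy3 on each array and no dye swap, per the labels. Agilent Feature Extraction made the deposited intensity values, in version 10.7.3.1 per the file headers (9.1 in the submitters' processing notes), background-subtracted and scaled by a linear dye factor. The deposited series table holds their Cy5 over Cy3 ratio. Other deposited columns used were raw medians and spot flags. Left out were control spots, 442 unmapped probes and 30 with outlier flags; 0 probes were saturated.

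The log2 ratio was centred on each array's median, with no loess or quantile step, averaged over regions and fitted with limma 3.58.1 in R 4.3.3 (lmFit, eBayes with a trend) on 3 arrays. On simulated data for this comparison over 14121 regions 17.4% of simulated log2 changes of 1 and 67.7% of those of 2 were found, and 18.3% of calls were false. The simulation gave all 3 arrays the spread between the clones at each level, with no slide effect and no difference in profile width. The real arrays lay on different slides and differed in width, so these shares need not hold for the real calls. Named were the 12 largest rises and falls called with both clones on one side, regions meeting the level rule, and the 6 largest differences each way within the shared slide with at least 75% of probes on that side. A few other regions in the text were chosen after their values were seen. Members, lists and rules were chosen with earlier results of these data known. Gene lists were not run, since no gene table of the build was used here. No source used here says whether the clones came from separate events; p-values cover only the spread between them.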

Additional observations from a re-analysis of the deposited data

How the results depend on the processing

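The count of 190 called regions became 10 after quantile normalization (0 higher, 9 of the 10 shared), 1 after intensity loess, 100 with normexp background correction (75 higher, 64 shared) and 95 without the trend (34 higher, 69 shared); other settings gave 132 to 279, and medians over probes 227 higher and 52 lower. The 390 regions were those where the mean of the clones differed from PJ34 by at least 1 with both clones on one side. Their count became 200 (quantile, 130 higher), 58 (loess), 133 (normexp, 38 higher) and 192 (scaling by median absolute deviation, 138 higher). It was 650 (medians, 404 higher), 193 (at least 5 probes), 2755 (size 0.5) and 66 (size 1.5), and 498 to 695 with 1 clone left out. The 695 of clone 226-47 became 222 (quantile, 61 higher), 103 (loess), 177 (normexp, 10 higher), 228 (scaling, 119 higher), 338 (5 probes), 3870 (size 0.5) and 113 (size 1.5). The 498 of clone 210-58 became 145 (loess, 58 higher), 318 (normexp), 939 (medians), 289 (5 probes), 3110 (size 0.5) and 116 (size 1.5). The 6 regions of the level rule were 4 to 7 under other processing and 6 to 10 with 1 clone left out, 10 without clone 226-47.

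The 12 largest falls and rises kept their direction under every setting run. The region on chromosome 7 from 6333486 was called in all 9 settings refitted, and the other 5 of the level rule in all but loess (adjusted p up to 0.19); 8 of the 12 falls were called after quantile normalization and 1 after loess. All 12 rises lost their call after both, and 5 of 12 with normexp. On chromosome 6 from 30688022 the difference of the mean of the clones from PJ34 was -0.54. It turned to 0.069 (loess), 0.10 (normexp) and 0.34 (scaling). With 1 clone left out it ran from -2.82 to 1.73, and that on chromosome 8 from 78005521 from -0.051 to 1.60. The causes were not tested. No paired analysis was possible because the labels give no shared replicate numbers. Slide as a block left no residual degree of freedom, and the gene list settings were not run.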
